A study of Mus musculus with 12 samples.

Results

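In the mouse embryo, over the day from stage E11.5 (E for embryonic day) to E12.5, the supporting cells of the gonad take the testis or the ovary path, and the genes described here are those whose change over that day differed between XY and XX cells. Their measure was the interaction, the XY change from E11.5 to E12.5 minus the XX change, fitted with limma on log2 array signal. At a Benjamini-Hochberg adjusted p under 0.05 it was called for 774 of the 44238 probe sets tested (1.75%), which name 638 genes, with 352 positive (0.796%) and 422 negative (0.954%). Called probe sets were then split by which genotype's own day change was called, which gave 495 for XY only, 189 for XX only and 40 for both in opposite directions. A further 7 changed in the same direction by unequal amounts, and 43 had neither day change called.

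RNA came from somatic support cells that flow cytometry had isolated from gonads of either genotype, in 4 groups of 3 pools (XX at E11.5, XX at E12.5, XY at E11.5 and XY at E12.5). All 4 groups carried the same transgenic background, FVB.Cg-Tg(Tyr)3412ARpw joined with Tg(Sry-EGFP)92EI, so that an Sry-EGFP reporter was shared by all groups. The RNA was amplified in 2 rounds and read on Affymetrix mouse arrays, which carry 1 or several probe sets for a gene. Nothing in the labels says that the pools came from separate litters, so the p-values measure the spread between pools, which may be technical.

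In the fetal gonad the same bipotential supporting precursors become Sertoli cells in XY embryos and pregranulosa cells in XX embryos. The Y-linked gene Sry starts the testis path through Sox9 and FGF9, while RSPO1, WNT4 and beta-catenin signalling and FOXL2 act on the ovarian side. A sex difference in a gene can arise because XY cells gain or lose its transcript, because XX cells do, or because both depart from a shared starting level.

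The genotypes were told apart by 4 Y-linked probe sets, which read 3.33 to 5.17 in XX pools and at least 6.86 in XY pools, and Xist read at least 12.8 in XX and at most 7.87 in XY. The early gonad genes Wt1, Nr5a1 and Gata4, which mark the somatic gonad, read 8.60 or higher in all pools at their brightest probe sets, with no called interaction. Signal of 3.33 to 5.17 was taken as the background range, so a fold against a group mean there is given as a lower bound. The range rests on 4 probe sets kept because they separated the genotypes, and others may have a higher background. Other folds from low group means may therefore be lower bounds too. XX E11.5 pool 2 stood apart: its mean over the 17 endothelial markers was 8.50 against 6.30 to 7.11 in the other pools, and over the interstitial mesenchyme markers 9.98 against 7.79 to 8.70. In bulk RNA, fewer cells of a type and less RNA per cell cannot be told apart.

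The XY changes made up most of the called interactions. Of the 495 called in XY only, which are 64.0% of the 774, 267 had a higher XY change relative to XX and 228 a lower one. In the first set the median day change was 2.04 in XY and -0.22 in XX on the log2 scale, and in the second it was -2.05 in XY and 0.36 in XX. The 189 called in XX only (24.4%) held 50 that fell in XX (median -1.41) and 139 that rose in XX (median 1.58). In the 40 opposite probe sets 27 rose in XX and fell in XY, and 13 rose in XY and fell in XX. For comparison, the day change itself was called at 6.16% of all probe sets in XY and at 3.11% in XX. Each genotype's p-values were adjusted on their own. A day change was therefore called at a less strict unadjusted p in XY than in XX, which favours the XY-only class. Because the classes were cut from the day changes, the class medians describe them and test nothing.

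**Figure D1:**
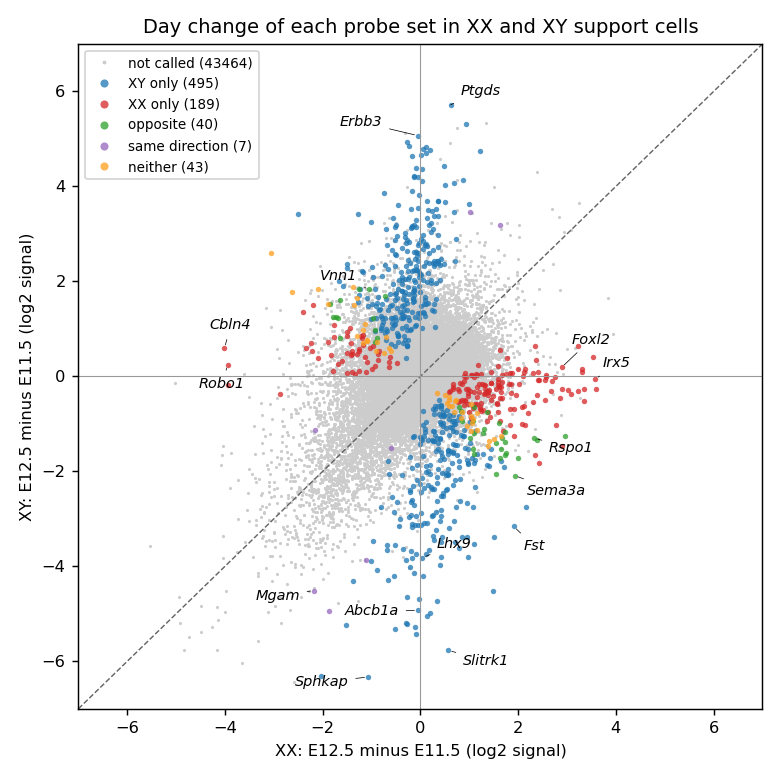
Day change (E12.5 minus E11.5, log2 signal) in XX on the horizontal axis and in XY on the vertical axis for each of the 44238 probe sets, with the 774 called interactions coloured by class and probe sets on the dashed line changing equally. The 495 XY-only probe sets spread along the vertical axis, with Slitrk1 and Sphkap at the bottom and Ptgds and Erbb3 at the top, and the 189 XX-only probe sets along the horizontal axis, from Cbln4 and Robo1 on the left to Irx5 on the right.

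A day change that was not called is not thereby absent. The 95% interval of the XX change lay within 1 log2 unit of 0 at 264 of the 495 XY-only probe sets, and that of the XY change at 119 of the 189 XX-only ones. Point estimates had opposite signs in XX and XY at 598 of the 774 called probe sets (77.3%), a share that the choice of members by the interaction favours. If a day change is counted at an unadjusted p under 0.05, the same 774 divide into 333 XY only, 124 XX only, 284 opposite and 33 in the same direction. The single-genotype classes therefore depend on the threshold for the second genotype, and the 40 opposite probe sets are those where both changes passed the strict one.

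The XY-XX difference was called at E11.5 for 8 of the 774 probe sets and at E12.5 for 747, where 0.0678% and 7.72% of all tested were called. In point estimates it was wider at E12.5 for 744 and narrower for 30. The interaction is the difference at E12.5 minus that at E11.5, so these counts follow in part from the choice of members, and a difference not called at E11.5 is not shown to be small. Genes on the X chromosome held 36 of the 720 called probe sets with a known chromosome (5.0%), against 3.24% of all such probe sets tested. The arrays named several probe sets for 400 of the called genes, and 66 genes had at least 2 called. Genes below that were called at only 1 probe set include Vcan (of 6), Dab1 (of 5), Col9a3 and Jag1 (of 3 each). Dhh, Sphkap and Axin2 were called at 1 of 2 each. No gene had called probe sets of opposite sign, but in 18 genes they fell in different classes.

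The stretches of DNA just upstream of leading genes of the 4 single-genotype routes are shown as the sequence context for the motif counts that follow. For each route the gene with the largest interaction that had exactly 1 promoter entry was taken. Each line is the 250 bases before the RefSeq gene start (build GRCm38.p6), 5′ to 3′ on the gene's strand, for Ptgds (chr2:25469750-25469999, minus strand), Slitrk1 (chr14:108914240-108914489, minus strand), Cbln4 (chr2:172043467-172043716, minus strand) and Vgll2 (chr10:52022252-52022501, plus strand). Capitals mark a match to 1 of 4 motifs searched on both strands: AACAAT for SOX factors, CTTTGA for TCF and LEF factors, AGATAA for GATA factors and AAGGTCA for NR5A factors.
Ptgds: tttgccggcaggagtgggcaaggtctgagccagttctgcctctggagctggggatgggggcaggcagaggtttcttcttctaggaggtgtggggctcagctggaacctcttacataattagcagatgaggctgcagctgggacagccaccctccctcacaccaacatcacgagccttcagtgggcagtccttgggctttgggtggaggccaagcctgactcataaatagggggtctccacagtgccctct
Slitrk1: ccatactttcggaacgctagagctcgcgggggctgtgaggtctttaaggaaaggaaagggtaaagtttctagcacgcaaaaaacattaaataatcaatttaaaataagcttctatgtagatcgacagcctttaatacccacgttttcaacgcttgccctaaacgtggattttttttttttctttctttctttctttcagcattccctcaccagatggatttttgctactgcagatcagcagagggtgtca
Cbln4: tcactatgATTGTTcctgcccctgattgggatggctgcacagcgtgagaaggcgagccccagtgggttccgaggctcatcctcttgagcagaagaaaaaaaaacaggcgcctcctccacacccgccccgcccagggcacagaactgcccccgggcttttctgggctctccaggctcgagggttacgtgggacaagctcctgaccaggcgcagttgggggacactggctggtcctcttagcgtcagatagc
Vgll2: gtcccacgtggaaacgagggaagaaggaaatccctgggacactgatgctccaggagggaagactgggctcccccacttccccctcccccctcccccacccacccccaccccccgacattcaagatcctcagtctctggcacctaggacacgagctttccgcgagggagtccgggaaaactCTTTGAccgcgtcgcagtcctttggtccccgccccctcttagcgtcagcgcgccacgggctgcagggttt

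The Cbln4 window held the SOX letters on the reverse strand (ATTGTT), the Vgll2 window held the TCF/LEF letters, and the other windows held none of the 4. Some of these motifs can share letters at their ends, as NR5A with TCF/LEF or GATA with SOX. Each was counted on its own, and a match is only a match of letters. Over the 14226 tested genes with a window, 7.86% held the SOX letters, 14.2% TCF/LEF, 8.82% GATA and 4.17% NR5A. Among the 176 genes of the XY-rise route with a window the shares were 6.82%, 15.9%, 9.09% and 1.7%, and among the 132 of the XY-fall route 8.33%, 13.6%, 5.3% and 2.27%. The 93 genes of the XX-rise route gave 5.38%, 15.1%, 4.3% and 5.38%. Among the 36 of the XX-fall route 1 gene each held the SOX, TCF/LEF and GATA letters and none the NR5A letters. No share was tested between routes.

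Erbb3, which encodes a neuregulin receptor that signals in a pair with another ErbB protein, rose in XY cells from values that overlapped those of XX. XX pools read 7.56, 7.98 and 6.58 at E11.5, then 7.38, 6.93 and 7.65 at E12.5, and XY pools 7.77, 6.77 and 5.64 at E11.5, then 11.63, 11.92 and 11.83 at E12.5. All 3 XY pools at E12.5 lay above every other pool, while XX and XY overlapped at E11.5. The XY change was 5.07 ± 0.50 (adjusted p = 0.00037), or 33.5-fold, against -0.05 ± 0.50 (adjusted p = 0.96) in XX, and the interaction was 5.12 ± 0.70 (adjusted p = 0.0058). A second Erbb3 probe set gave an interaction of 0.11 and was not called.

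Ptgds, the prostaglandin D synthase of Sertoli cells, showed the highest XY gain among the genes named. Its XY pools read 6.30, 6.40 and 5.53 at E11.5, then 11.08, 12.36 and 11.97 at E12.5 and its XX pools 5.56, 5.40 and 5.19 at E11.5, then 6.07, 6.32 and 5.62 at E12.5. The XY pools at E12.5 stood above all others, with an XY change of 5.72 ± 0.34 (adjusted p = 1.6e-05), or 52.9-fold, and an interaction of 5.10 ± 0.48 (adjusted p = 0.00096). Its other probe set was called too, at 3.55. Epyc, a small leucine-rich proteoglycan of the matrix, was within the background range in 9 pools and appeared in the 3 XY pools at E12.5. It read 4.12, 4.40 and 4.02 at E11.5, then 3.82, 4.30 and 3.88 at E12.5 in XX and 4.23, 4.04 and 3.94 at E11.5, then 8.55, 8.68 and 8.93 at E12.5 in XY. The XY rise was at least 25.1-fold, with an interaction of 4.83 ± 0.24 (adjusted p = 2.3e-05).

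The same shape was seen in genes with other roles. Serpina5, a secreted serine protease inhibitor, rose at least 25.5-fold in XY, with XX pools at 4.51, 4.60 and 4.21 at E11.5, then 4.48, 4.40 and 4.49 at E12.5. Rerg, a Ras-related growth inhibitor, rose at least 28.5-fold and Rtn4rl1, a homologue of the Nogo receptor, 27.6-fold. Their interactions were 4.72 ± 0.46 (adjusted p = 0.0013) and 4.74 ± 0.43 (adjusted p = 0.0008). Defb19, a beta-defensin of Sertoli cells, read 6.82, 6.95 and 6.88 at E11.5, then 12.12, 12.13 and 12.34 at E12.5 in XY and 7.09, 6.73 and 6.82 at E11.5, then 7.15, 7.97 and 8.30 at E12.5 in XX. Its XY pools at E12.5 were far above the rest, and all 3 XX pools at E12.5 were above every E11.5 pool, without a called XX change. The Defb19 interaction was 4.39 ± 0.34 (adjusted p = 0.00036).

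Dhh and Col9a3 rose in XY from values that differed widely between pools at E11.5. Dhh, the hedgehog ligand of Sertoli cells, read 9.76, 8.53 and 7.34 at E11.5, then 12.70, 12.76 and 12.78 at E12.5 in XY and 7.23, 7.16 and 7.47 at E11.5, then 7.30, 7.21 and 7.23 at E12.5 in XX. Col9a3, a chain of type IX collagen, read 9.49, 8.15 and 7.04 at E11.5, then 12.86, 13.03 and 13.07 at E12.5 in XY and 6.80, 6.74 and 6.72 at E11.5, then 6.90, 6.96 and 6.99 at E12.5 in XX. In both genes the XY pools at E11.5 were spread, with pool 1 highest and pool 3 near the XX level. The interactions were 4.24 ± 0.64 (adjusted p = 0.0092) for Dhh and 4.56 ± 0.64 (adjusted p = 0.0067) for Col9a3. Gdnf, a growth factor of Sertoli cells, had a like spread of XY pools at E11.5 (9.68, 8.44 and 6.77) and rose in XY by 3.51 ± 0.57 (adjusted p = 0.0064), but its interaction of 2.76 ± 0.80 (adjusted p = 0.13) was not called.

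Pak3, a p21-activated kinase, combined an XY gain with lower XX values. Its probe set with the largest interaction read 7.86, 9.62 and 8.59 at E11.5, then 6.02, 6.44 and 6.10 at E12.5 in XX and 9.68, 8.59 and 6.49 at E11.5, then 12.34, 11.26 and 11.44 at E12.5 in XY. At E11.5 the genotypes overlapped, and at E12.5 all XY pools were higher. The interaction was 5.93 ± 1.01 (adjusted p = 0.017), and its XX change of -2.50 ± 0.71 (adjusted p = 0.083) was not called. A second Pak3 probe set, at 3.69, had the XX fall called and the XY rise not, so the gene sits in both classes. Another, at 2.56 (adjusted p = 0.036), was classed as XY only and kept its call in 2 of the 12 omissions of a single array. The last of its 4 probe sets, at 0.53 (adjusted p = 0.72), was not called. Once XX E12.5 pool 3 was left out, the first probe set's adjusted p was 0.055.

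Slitrk1, a neuronal membrane protein that organises synapses, had the interaction largest in size of the genes named, with its XY change called and its XX change not. XX pools read 12.43, 10.60 and 12.02 at E11.5, then 12.35, 12.14 and 12.26 at E12.5, and XY pools 10.97, 11.70 and 11.64 at E11.5, then 6.13, 4.66 and 6.20 at E12.5. Only the XY pools at E12.5 were low, and all 9 others were at 10.60 or higher. The XY fall was -5.77 ± 0.50 (adjusted p = 0.00018), or 54.7-fold, and the interaction -6.34 ± 0.71 (adjusted p = 0.0022). XX E11.5 pool 2 was the lowest of the XX pools, and without it the interaction was -5.80.

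Dclk1, a microtubule-binding kinase, varied little outside the XY pools at E12.5. It read 12.92, 12.70 and 13.02 at E11.5, then 12.91, 12.71 and 12.69 at E12.5 in XX and 12.54, 12.83 and 12.71 at E11.5, then 8.09, 6.79 and 7.37 at E12.5 in XY. All 9 pools other than XY at E12.5 lay between 12.54 and 13.02. The XY fall was 38.7-fold and the interaction -5.17 ± 0.37 (adjusted p = 0.00026), with 3 of its 9 probe sets called. Sphkap, a kinase anchoring protein, read 12.40, 12.46 and 12.52 at E11.5, then 7.87, 5.37 and 5.16 at E12.5 in XY and 12.71, 12.20 and 12.69 at E11.5, then 11.86, 11.25 and 11.27 at E12.5 in XX. It fell 80.4-fold in XY, XX pools were also lower at E12.5 than at E11.5 without a call, and the interaction was -5.25 ± 0.82 (adjusted p = 0.011).

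Further XY losses were found in genes of unlike roles. Vav3, a guanine nucleotide exchange factor, fell 42.8-fold and Tph2, the neuronal enzyme that starts serotonin synthesis, at least 23-fold. Taf7l, an X-linked relative of a general transcription factor subunit, fell at least 31.7-fold and Cd244a, an immune receptor, at least 32.9-fold. Tph2 XX pools read 8.19, 6.82 and 9.28 at E11.5, then 9.75, 9.52 and 9.45 at E12.5: all 3 at E12.5 were above those of E11.5, but the XX change of 1.48 ± 0.48 (adjusted p = 0.11) was not called.

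Of 15 early gonad regulators 4 were called at their brightest probe set, all negative: Lhx9, Emx2, Sry and Nr0b1. Over all 18004 genes 1.54% had a negative call at that probe set and 1.28% a positive one. At these probe sets Lhx9 and Emx2 fell in XY with no called change in XX. Lhx9, required for the gonad to form, read 12.05, 12.59 and 12.49 at E11.5, then 8.65, 8.64 and 8.37 at E12.5 in XY and 12.72, 12.38 and 12.84 at E11.5, then 12.60, 12.77 and 12.69 at E12.5 in XX at its called probe set. Emx2, also needed for early gonad growth, read 11.72, 11.73 and 11.67 at E11.5, then 8.75, 8.26 and 8.76 at E12.5 in XY and 11.52, 11.56 and 12.51 at E11.5, then 11.73, 11.89 and 11.63 at E12.5 in XX. In both genes the XY pools at E12.5 were the 3 lowest of the 12. The interactions were -3.86 ± 0.24 (adjusted p = 0.0001) and -3.00 ± 0.35 (adjusted p = 0.0027). Of the 4 Lhx9 probe sets 1 was called, and another fell in both genotypes, with an interaction of -1.41 ± 0.33 (adjusted p = 0.065).

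Adm, a secreted vasodilator peptide, and Ndrg1, a stress-responsive gene, fell in XY by 7.2-fold and 6.37-fold. Their interactions were -3.16 ± 0.45 (adjusted p = 0.0067) and -3.63 ± 0.38 (adjusted p = 0.0016). Cdkn1c, an inhibitor of cyclin-dependent kinases, fell 5.27-fold in XY, with an interaction of -2.18 ± 0.31 (adjusted p = 0.0067). Its XY pools at E12.5 read 9.94, 10.38 and 10.61, below the other 9, all at 12.47 or higher. Dhrs3, a retinaldehyde reductase, and Ptgis, the prostacyclin synthase, also fell in XY, with interactions of -2.26 ± 0.29 (adjusted p = 0.004) and -2.91 ± 0.42 (adjusted p = 0.0075).

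Cbln4, a secreted synaptic organiser of the cerebellin family, reached its XY bias by a loss in XX. XX pools read 10.28, 9.58 and 10.18 at E11.5, then 6.06, 5.76 and 6.19 at E12.5, and XY pools 11.09, 10.37 and 9.75 at E11.5, then 11.28, 10.62 and 11.07 at E12.5. The XX pools at E12.5 were the 3 lowest, and the XY pools overlapped between days. The XX fall was -4.01 ± 0.33 (adjusted p = 0.00086), or 16.1-fold, against an XY change of 0.59 ± 0.33 (adjusted p = 0.36). The interaction of 4.60 ± 0.46 (adjusted p = 0.0013) has the same sign as that of Erbb3, although the genotype that moved differs.

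Robo1, a receptor for Slit guidance proteins, and Smoc2, a matricellular calcium-binding protein, followed the Cbln4 pattern. Robo1 read 12.04, 11.74 and 11.57 at E11.5, then 8.37, 7.71 and 7.46 at E12.5 in XX and 11.70, 11.38 and 11.23 at E11.5, then 11.92, 11.28 and 11.85 at E12.5 in XY. Smoc2 read 9.84, 10.10 and 9.73 at E11.5, then 5.41, 6.24 and 6.22 at E12.5 in XX and 10.39, 9.60 and 9.62 at E11.5, then 9.90, 9.49 and 9.65 at E12.5 in XY. In each the XX pools at E12.5 were below the other 9 pools. The XX falls were both 15.3-fold, and the interactions were 4.18 ± 0.37 (adjusted p = 0.00064) and 3.75 ± 0.38 (adjusted p = 0.0015). Each was called at a single probe set, of 3 for Robo1 and 2 for Smoc2.

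Hpgd, the enzyme that inactivates prostaglandins, fell 4.67-fold in XX, with an interaction of 2.76 ± 0.35 (adjusted p = 0.0041). Nrg1, a ligand of the ErbB receptors that include Erbb3, fell 3.45-fold in XX. It read 7.76, 7.72 and 8.12 at E11.5, then 6.18, 5.99 and 6.08 at E12.5 in XX and 7.21, 6.90 and 7.20 at E11.5, then 7.71, 6.52 and 7.43 at E12.5 in XY, and its interaction was 1.90 ± 0.37 (adjusted p = 0.034). That call was lost without any of 9 arrays, with adjusted p reaching 0.09 without XY E11.5 pool 2.

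Ttk, Ect2 and Rad54l fell in XX from values that were highest in 1 pool. Ttk, a spindle checkpoint kinase, read 7.81, 9.76 and 7.72 at E11.5, then 5.13, 6.31 and 6.61 at E12.5 in XX, Ect2, which drives cytokinesis, 8.01, 9.16 and 8.31 at E11.5, then 6.22, 6.64 and 5.60 at E12.5, and Rad54l, a recombination repair protein, 8.31, 9.38 and 7.90 at E11.5, then 6.61, 5.77 and 6.51 at E12.5. In all of them XX E11.5 pool 2, the pool high in other markers, was the highest of the 12, and the part of its composition in these changes was not tested. The interactions were 3.77 ± 0.79 (adjusted p = 0.044), 2.94 ± 0.51 (adjusted p = 0.02) and 2.94 ± 0.58 (adjusted p = 0.037). Leaving out that pool kept these 3 calls, but other single arrays ended them: 8 for Ttk, 4 for Ect2 and 9 for Rad54l, with adjusted p up to 0.1 without XY E11.5 pool 3, and 0.06 and 0.093 without XY E11.5 pool 2. Mospd2, a membrane contact site protein, was likewise highest in that pool, and its interaction of 2.84 ± 0.56 (adjusted p = 0.036) was lost without any of 9 arrays. Its adjusted p was 0.072 without that pool and up to 0.092 without XY E11.5 pool 2.

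Gains in XX cells included known pregranulosa genes. Foxl2, the forkhead factor of the ovary, read 8.26, 7.54 and 8.78 at E11.5, then 11.11, 11.03 and 11.11 at E12.5 in XX and 7.69, 7.77 and 7.35 at E11.5, then 8.01, 7.39 and 7.96 at E12.5 in XY. The XX pools at E12.5 lay above all others, and XX and XY overlapped at E11.5. The XX rise was 2.89 ± 0.28 (adjusted p = 0.0026), or 7.42-fold, and the interaction -2.71 ± 0.40 (adjusted p = 0.0087), at 1 of its 2 probe sets. Gng13, a G protein gamma subunit, read 6.45, 5.77 and 5.80 at E11.5, then 8.93, 9.56 and 9.56 at E12.5 in XX and 5.47, 6.35 and 6.04 at E11.5, then 5.44, 5.96 and 5.63 at E12.5 in XY, a rise of 10.2-fold in XX with an interaction of -3.62 ± 0.40 (adjusted p = 0.002).

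The Iroquois transcription factors Irx3 and Irx5 both rose in XX. Irx5 read 6.11, 4.88 and 5.56 at E11.5, then 8.99, 9.36 and 8.94 at E12.5 in XX and 5.83, 5.87 and 6.94 at E11.5, then 6.57, 5.78 and 6.11 at E12.5 in XY, and Irx3 9.56, 8.16 and 10.45 at E11.5, then 12.60, 12.73 and 12.86 at E12.5 in XX and 8.84, 8.46 and 9.48 at E11.5, then 8.57, 8.64 and 8.01 at E12.5 in XY. At E12.5 every XX pool exceeded every XY pool of either gene. The XX rises were 11.9-fold and 10.1-fold, and the interactions -3.64 ± 0.52 (adjusted p = 0.007) and -3.86 ± 0.68 (adjusted p = 0.022). Irx5 was called without each array in turn. Irx3, in which XX E11.5 pool 2 was low, lost its call without any of 4 other arrays, with adjusted p up to 0.064 without XX E12.5 pool 3.

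Vgll2, a cofactor of TEAD transcription factors, rose 7.45-fold in XX, and its XY change of -1.46 ± 0.41 (adjusted p = 0.068) was not called. Olfm1, a secreted neuronal glycoprotein, rose 6.85-fold and Il17d, a cytokine, 8.43-fold. Their interactions were -4.36 ± 0.58 (adjusted p = 0.0049), -3.81 ± 0.49 (adjusted p = 0.004) and -3.46 ± 0.51 (adjusted p = 0.009), and all 3 Olfm1 probe sets were called. Axin2, a feedback target of beta-catenin signalling, had a smaller but tight rise. It read 8.41, 8.54 and 8.46 at E11.5, then 10.01, 9.81 and 9.95 at E12.5 in XX and 8.27, 8.20 and 8.13 at E11.5, then 8.38, 8.03 and 7.79 at E12.5 in XY, so that XX pools at E12.5 stood above the other 9. Its interaction was -1.59 ± 0.20 (adjusted p = 0.0038).

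**Figure D2:**
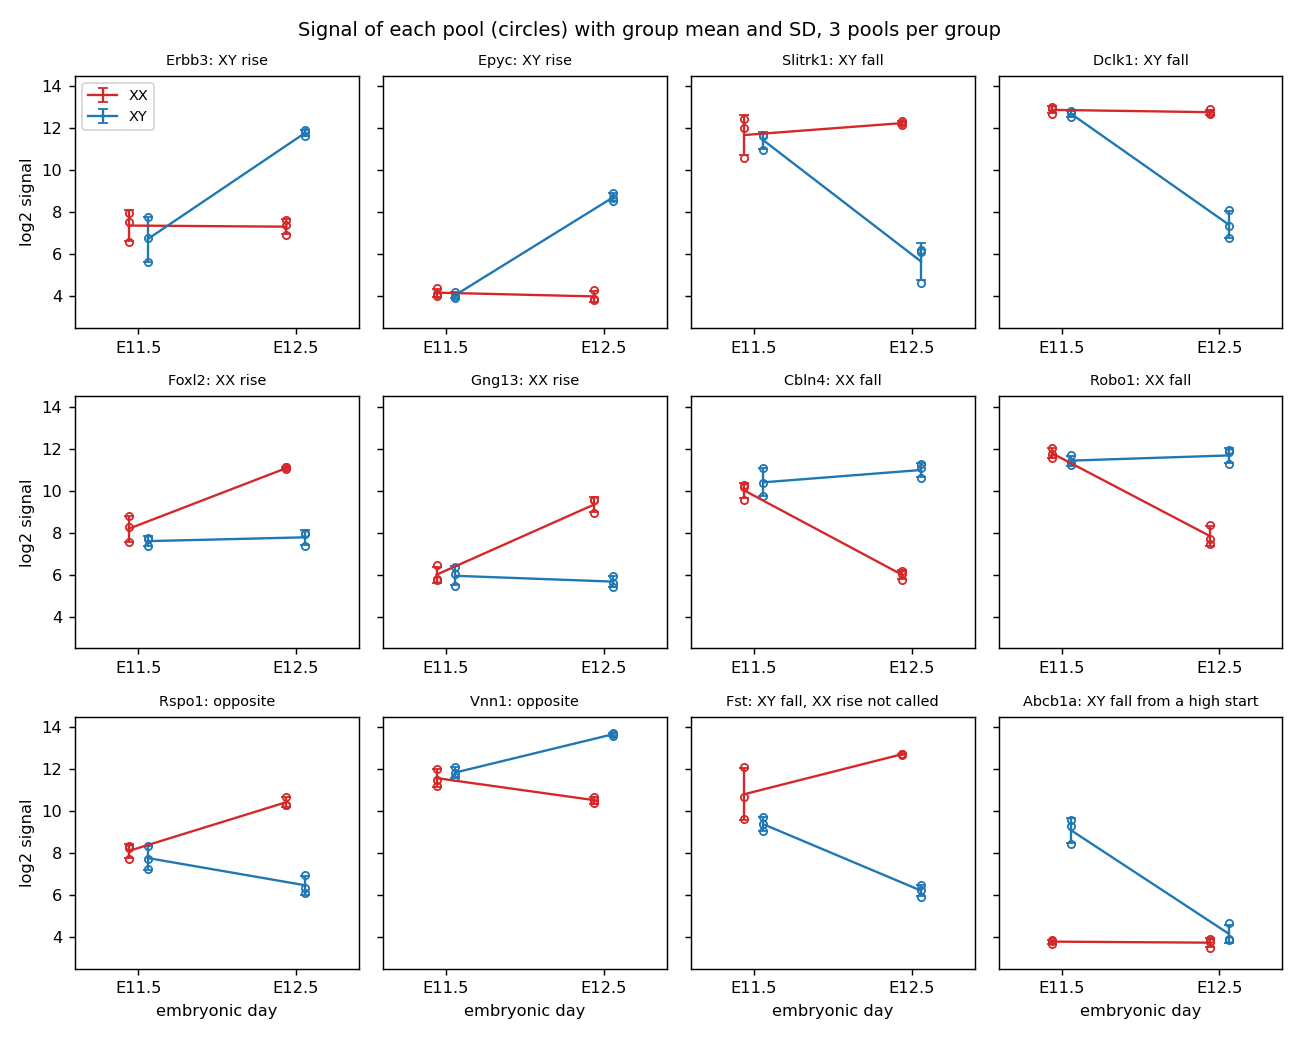
Log2 signal of each pool (open circles) for 12 genes at E11.5 and E12.5, with XX in red, XY in blue, and lines joining group means with SD bars (n = 3). Erbb3 and Epyc part by an XY rise, Slitrk1 and Dclk1 by an XY fall, Foxl2 and Gng13 by an XX rise, Cbln4 and Robo1 by an XX fall, and Abcb1a converges.

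Fst, which encodes the activin-binding protein follistatin, shows how a gene can lie between classes. XX pools read 10.68, 9.63 and 12.12 at E11.5, then 12.68, 12.74 and 12.72 at E12.5, and XY pools 9.38, 9.06 and 9.71 at E11.5, then 6.25, 5.94 and 6.47 at E12.5. The XX pools spread widely at E11.5 and closely at E12.5, where they were the 3 highest, and the XY pools at E12.5 were the 3 lowest. The XY fall was -3.16 ± 0.49 (adjusted p = 0.0049), the XX change of 1.91 ± 0.49 (adjusted p = 0.063) was not called, and the interaction was -5.07 ± 0.69 (adjusted p = 0.0054). At the second Fst probe set the XX rise was called, 2.35 ± 0.53 (adjusted p = 0.045), and the XY change of -1.65 ± 0.53 (adjusted p = 0.1) was not. The interaction there was -4.00 ± 0.75 (adjusted p = 0.027), and leaving out any of 7 arrays ended it, with adjusted p up to 0.074 without XX E12.5 pool 3.

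Opposite changes that both passed the threshold had a median interaction of 2.89 in size. Rspo1, the secreted activator of WNT signalling in the ovary, read 8.27, 7.71 and 8.35 at E11.5, then 10.32, 10.69 and 10.29 at E12.5 in XX and 7.23, 8.35 and 7.74 at E11.5, then 6.35, 6.98 and 6.09 at E12.5 in XY. XX and XY overlapped at E11.5 and were wholly apart at E12.5. The XX rise was 5.01-fold, the XY fall 2.45-fold, and the interaction -3.62 ± 0.44 (adjusted p = 0.0035). Sema3a, a secreted guidance cue, read 9.46, 8.91 and 9.51 at E11.5, then 11.06, 11.37 and 11.25 at E12.5 in XX and 10.02, 10.43 and 9.92 at E11.5, then 7.85, 7.73 and 8.52 at E12.5 in XY. At E11.5 the XY pools were above the XX pools, and at E12.5 they were below them. The E11.5 difference of 0.83 ± 0.24 (adjusted p = 0.5) was not called. The Sema3a interaction was -4.02 ± 0.34 (adjusted p = 0.00053), and a second probe set with a called interaction was classed as XX only.

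Nr0b1, which encodes the X-linked nuclear receptor DAX1, had the same order of pools as Sema3a on each day. It read 10.15, 9.42 and 10.11 at E11.5, then 10.71, 11.08 and 11.15 at E12.5 in XX and 10.22, 11.02 and 10.69 at E11.5, then 9.48, 9.63 and 9.20 at E12.5 in XY. XY pools were the higher at E11.5 and XX pools at E12.5, without overlap on either day, and the interaction was -2.29 ± 0.35 (adjusted p = 0.011). The Nr0b1 difference at E11.5, 0.75 ± 0.25 (adjusted p = 0.62), was not called. Gdpd2, a phosphodiesterase, Colec12, a scavenger receptor, and Dab1, an adaptor in reelin signalling, also rose in XX and fell in XY. Their interactions were -4.21 ± 0.40 (adjusted p = 0.0011), -3.71 ± 0.45 (adjusted p = 0.0035) and -3.38 ± 0.37 (adjusted p = 0.0021). Gdpd2 pools were higher in XY at E11.5 (8.07 to 8.40 against 6.92 to 7.18) and higher in XX at E12.5 (9.29 to 10.68 against 6.81 to 7.15). The Gdpd2 difference at E11.5, 1.15 ± 0.28 (adjusted p = 0.39), was not called.

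In the other direction, Vnn1, a pantetheinase of Sertoli cells, read 12.09, 11.61 and 11.83 at E11.5, then 13.73, 13.59 and 13.68 at E12.5 in XY and 11.48, 11.22 and 12.03 at E11.5, then 10.69, 10.52 and 10.37 at E12.5 in XX. The genotypes overlapped at E11.5 and separated at E12.5, with an XY rise of 3.55-fold, an XX fall of 2.08-fold and an interaction of 2.88 ± 0.28 (adjusted p = 0.0013). At the other Vnn1 probe set, the brighter one, the interaction was 1.86 ± 0.26 (adjusted p = 0.0062). There the XX change of -0.78 was not called, so that probe set was classed as XY only. Septin11, a cytoskeletal GTPase, was called at all 4 of its probe sets, the largest at 2.46 ± 0.26 (adjusted p = 0.0018). Atp2a2, the calcium pump of the endoplasmic reticulum, and Pmepa1, an inhibitor of TGF-beta signalling, had interactions of 2.92 ± 0.39 (adjusted p = 0.005) and 3.25 ± 0.45 (adjusted p = 0.0063). Nceh1, a cholesterol ester hydrolase, and Dock10, of the dedicator of cytokinesis family, had 3.11 ± 0.39 (adjusted p = 0.0038) and 2.96 ± 0.40 (adjusted p = 0.0054).

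A few called genes moved the same way in both genotypes. Peg3, an imprinted zinc finger gene, had 1 of 2 probe sets called, the dimmer one, with an interaction of -3.08 ± 0.51 (adjusted p = 0.015). That probe set fell 3.66-fold in XX and 31-fold in XY. The brighter Peg3 probe set fell only 1.62-fold in XY (adjusted p = 0.0025). Its XX change of -0.11 ± 0.09 (adjusted p = 0.53) and its interaction of -0.59 ± 0.13 (adjusted p = 0.06) were not called. Mgam, a maltase, fell 4.55-fold in XX and 22.8-fold in XY. Cemip, a hyaluronan-degrading protein, rose 2.03-fold in XX and 11-fold in XY. Pcdh8, a protocadherin, had a large interaction, 5.66 ± 1.01 (adjusted p = 0.022), with neither day change called. Its values were 6.20, 8.40 and 5.49 at E11.5, then 3.70, 3.43 and 3.77 at E12.5 in XX and 5.78, 4.10 and 3.81 at E11.5, then 7.86, 6.75 and 6.89 at E12.5 in XY, and the E11.5 values were highest in pool 2 for XX and in pool 1 for XY. Leaving out any of 7 arrays ended the call, with adjusted p up to 0.066 without XY E11.5 pool 2. Peg3, Mgam, Cemip, Pcdh8, Abcb1a and Gdnf were chosen after their values were seen.

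Among the 30 probe sets whose sex difference narrowed, Sry and Abcb1a began higher in XY. Sry read 8.20, 8.33 and 8.55 at E11.5, then 6.82, 7.14 and 7.09 at E12.5 in XY and 7.10, 6.82 and 6.82 at E11.5, then 6.92, 7.12 and 7.39 at E12.5 in XX at its called probe set. The XY pools were above XX at E11.5 and overlapped it at E12.5, with an interaction of -1.57 ± 0.22 (adjusted p = 0.0067). Whether the reporter contributes to the XX signal was not tested. Abcb1a, a drug efflux pump, read 9.28, 9.58 and 8.42 at E11.5, then 3.94, 3.89 and 4.67 at E12.5 in XY and 3.70, 3.88 and 3.80 at E11.5, then 3.94, 3.79 and 3.50 at E12.5 in XX. It was above the background range in the XY pools at E11.5 alone, fell at least 30.5-fold there, and both its probe sets were called. Phgdh, the first enzyme of serine synthesis, closed the gap from the XX side: XX rose 3.42-fold towards an XY level already high. Its interaction of -1.39 ± 0.28 (adjusted p = 0.04) was lost without any of 10 arrays, with adjusted p up to 0.097 without XX E12.5 pool 3.

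Several central genes of sex determination had no called interaction. Sox9 read 10.33, 9.77 and 10.10 at E11.5, then 8.94, 10.09 and 9.35 at E12.5 in XY and 6.58, 6.18 and 6.32 at E11.5, then 7.02, 6.89 and 6.22 at E12.5 in XX at the probe set with the largest interaction, -0.96 ± 0.43 (adjusted p = 0.34), and its other probe sets gave -0.33 and 0.20. At the first, XY exceeded XX on both days without overlap. Fgf9, the growth factor that sustains Sox9, had interactions of -1.09 ± 0.84 (adjusted p = 0.61) and 0.71 ± 0.57 (adjusted p = 0.64) at its 2 probe sets, which differ in sign, and Amh, the hormone that removes the female ducts, one of 1.32 ± 0.43 (adjusted p = 0.17). The Amh XY pools at E12.5, 7.38, 8.87 and 7.80, were above the other 9, and its XY rise was called at 1.52 ± 0.30 (adjusted p = 0.017). The 2 Wnt4 probe sets gave -2.60 ± 0.59 (adjusted p = 0.058) and, at the brighter one, -1.48 ± 0.50 (adjusted p = 0.19), and neither was called.

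Gene lists were read at the brightest probe set of each gene, where 1.28% of 18004 genes had a positive called interaction and 1.54% a negative one, and the median over all genes was -0.06. Of 25 measured genes of Sertoli differentiation 11 were called, all positive, and the list median was 2.04. The called genes were Defb19, Cbln4, Cst9, Ptgds, Hsd17b3, Erbb3, Vnn1, Col9a3, Dhh, Sox8 and Sox10. Of 19 pregranulosa genes 11 were called, all negative, with a median of -2.40. Both lists were drawn up from genes known for a sex bias in these cells, so their directions are not independent evidence.

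By mean level the Sertoli list stood at 7.82 to 7.90 in XX at E11.5 and 7.66 to 7.68 in XX at E12.5. In XY it stood at 8.60 to 9.57 and then 10.97 to 11.13. The pregranulosa list moved on both sides, from 8.36 to 9.13 up to 10.05 to 10.09 in XX, and from 8.52 to 8.85 down to 7.58 to 7.61 in XY. These are means of log2 signal over the list in each pool. Of the Sertoli genes 16 had a called XY rise and 2 a called XX fall, whereas the pregranulosa genes had 6 called XX rises and 7 called XY falls. Over all 18004 genes the shares were 4.47% for an XY rise, 2.54% for an XY fall, 2.55% for an XX rise and 1.21% for an XX fall.

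Among signalling lists the called members were few. Notch had 3 of 17, all positive: the ligand Jag1 (3.33) and the target genes Hes5 (2.80) and Hey2 (2.47). Hes5 read 6.83, 6.44 and 6.78 at E11.5, then 9.45, 9.02 and 9.85 at E12.5 in XY and 6.22, 6.45 and 6.11 at E11.5, then 6.36, 5.97 and 6.31 at E12.5 in XX and kept its call without each array. Jag1 and Hey2 were lost without any of 8 and 11 arrays, with adjusted p up to 0.091 without XX E12.5 pool 2 and 0.12 without XX E12.5 pool 3. Hedgehog had 2 of 13, Dhh and its receptor Ptch1 (2.14 ± 0.42 (adjusted p = 0.036)), and Ptch1 was lost without any of 10 arrays, with adjusted p up to 0.091 without XY E11.5 pool 2.

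The WNT list had 2 of 20, Rspo1 and Axin2, both negative, with a list median of -0.44, which was -0.71 without XX E11.5 pool 2. FGF had 1 of 14, the receptor Fgfr2, with an interaction of -2.27 ± 0.27 (adjusted p = 0.0033). Its XY change was -1.6 ± 0.19 (adjusted p = 0.0013), and its XX change of 0.67 ± 0.19 (adjusted p = 0.085) was not called. The ErbB list had 2 of 14, Erbb3 and Nrg1, the receptor by an XY rise and the ligand by an XX fall. In the activin, BMP and AMH list Fst and Bmp2 were called of 24, both negative, and Bmp2 (-2.40 ± 0.44 (adjusted p = 0.025)) was lost without any of 8 arrays, with adjusted p up to 0.07 without XX E12.5 pool 2.

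Called members of the adhesion and guidance lists differed in direction, and those of the matrix list were positive. Of 30 synaptic adhesion genes Cbln4 was positive and Slitrk1 and Lrrn3 negative, and the list median was -0.06. Of 26 guidance genes Robo1 was positive and Sema3a and Plxna4 negative. Lrrn3 (-3.39) was lost without any of 7 arrays and Plxna4 (-2.84) without any of 9, with adjusted p up to 0.082 without XY E11.5 pool 2 and 0.092 without XX E12.5 pool 3. Of 16 collagen and matrix genes Col9a3, Col9a2 (1.88 ± 0.30 (adjusted p = 0.014)) and Vcan (3.26 ± 0.66 (adjusted p = 0.039)) were positive, and Vcan was lost without any of 9 arrays, with adjusted p up to 0.098 without XY E11.5 pool 2. The matrix list had 14 of 16 interactions positive and a median of 0.79, which was 0.34 without XX E11.5 pool 2. The prostaglandin list held the synthase Ptgds and the degrading enzyme Hpgd as positive and Ptgis as negative, of 12. In the retinoid, serine, cell cycle inhibitor and glycolysis and hypoxia lists the called members were those already named (Dhrs3, Phgdh, Cdkn1c, Ndrg1 and Adm), all negative.

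**Figure D3:**
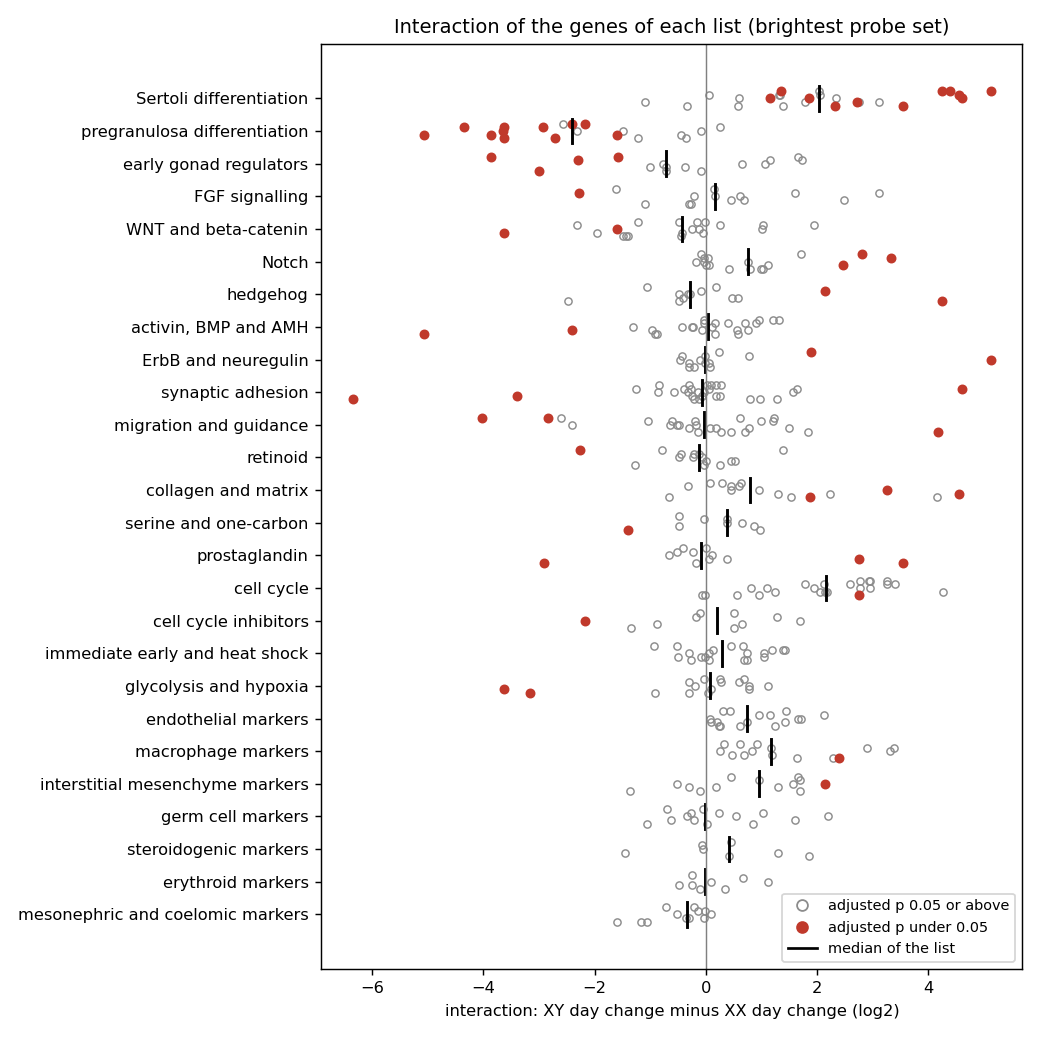
Interaction (XY day change minus XX day change, log2) of each measured gene in 26 lists at its brightest probe set, filled red where adjusted p was under 0.05, with a black bar at the list median. The Sertoli list has its median at 2.04 with 11 genes called, the pregranulosa list at -2.40 with 11 called, and the cell cycle list at 2.16 with 1 called.

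The cell cycle list had a median of 2.16, beside 2.04 for the Sertoli list, with only Aurka called of 24. Of the 24 cell cycle genes 22 had a positive interaction. At an unadjusted limma p under 0.05 there were 16 of 24, against 3453 of all 18004 genes. Aurka, a mitotic kinase, read 6.87, 6.93 and 7.18 at E11.5, then 8.32, 8.91 and 8.71 at E12.5 in XY and 7.43, 8.45 and 7.00 at E11.5, then 6.19, 6.59 and 6.82 at E12.5 in XX, with an interaction of 2.75 ± 0.47 (adjusted p = 0.017). The call was lost without XY E11.5 pool 2 (adjusted p = 0.051). The list's level was 9.86 to 10.15 in XY at E12.5 and 8.59 to 9.31 in XY at E11.5. In XX it was 8.73, 9.17 and 10.48 at E11.5, the last being pool 2, and 7.71 to 8.79 at E12.5. Without that pool the list median was 1.58.

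Markers of cells the sort could hold moved with that pool as well. The endothelial list had 0 of 17 called by limma, with all 17 interactions positive. At an unadjusted limma p under 0.05 it had 1 of 17, where all genes had 3453 of 18004. Its median was 0.74, which was 0.18 without XX E11.5 pool 2. The interstitial mesenchyme list had 1 of 13 called (Ptch1) and a median of 0.96, which was 0.26 without it. The macrophage list had Fcgr3, an Fc receptor, called of 15 (2.39 ± 0.38 (adjusted p = 0.013)). All 15 interactions were positive, with a median of 1.18, or 1.03 without that pool. At an unadjusted limma p under 0.05 the macrophage list had 6 of 15 and the interstitial mesenchyme list 2 of 13. Macrophage marker level was 7.49 to 7.74 in XY at E12.5, 6.10 to 6.74 in XY at E11.5, 6.70 to 8.01 in XX at E11.5 and 6.97 to 7.06 in XX at E12.5. Ms4a6d, a macrophage-expressed gene, had 1 of the 8 largest positive interactions of the XY-only class (4.68 ± 0.76 (adjusted p = 0.014)). Its XY rise was 3.41 ± 0.54 (adjusted p = 0.0057), from a mean of 4.82 in the background range. Its XX change of -1.27 ± 0.54 (adjusted p = 0.2) was not called. Ms4a6d moved with the macrophage markers, and their part in its change was not tested. The germ cell, steroidogenic, erythroid, mesonephric and immediate early gene lists had no member called by limma. At an unadjusted p under 0.05 they had 1 of 14, 1 of 7, 0 of 8, 2 of 12 and 4 of 20. The count over all genes was 3453 of 18004. Of the 12 mesonephric and coelomic interactions 1 was positive. The medians of these lists lay between -0.33 and 0.41. Without XX E11.5 pool 2 these medians lay between -0.77 and 0.31, the lowest again being that of the mesonephric and coelomic list.

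**Figure D4:**
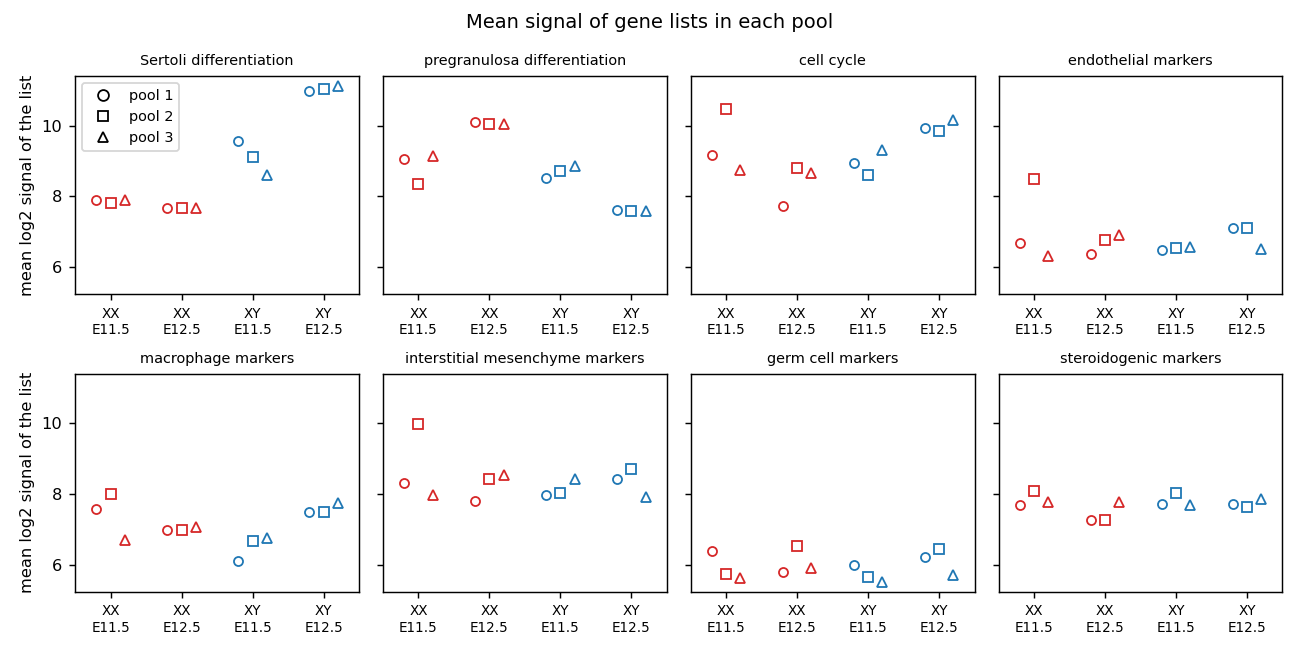
Mean log2 signal over the measured genes of 8 lists in each pool, XX in red and XY in blue, with a symbol for each pool number. The Sertoli and pregranulosa lists separate the genotypes at E12.5. XX E11.5 pool 2 is the highest pool in the endothelial (8.50), interstitial mesenchyme (9.98) and cell cycle (10.48) lists. It is also the highest, by less, in the macrophage (8.01) and steroidogenic (8.09) lists.

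How far the calls rest on single arrays differed between classes. Of the 774 probe sets 354 (45.7%) were called without each of the 12 arrays in turn. That share was 38 of 40 for the opposite class, 243 of 495 for XY only, 69 of 189 for XX only and 0 of 43 where neither day change was called. Those shares are of the interaction call alone: the number meeting the rule for opposite changes fell to 6 without XX E12.5 pool 2 or pool 3, because a day change was then no longer called in one genotype. The total ran from 403 without XX E12.5 pool 3 to 1273 without XY E11.5 pool 1. Of the 78 called probe sets named by rule or list 60 kept the call in all 12 omissions, among them the leading probe sets of Slitrk1, Erbb3, Cbln4 and Fst. At the threshold itself the members just inside were Sparc (2.00), Myh11 (-2.99) and Efna1 (-2.85), and those just outside Dera (1.42), Dynlt3 (0.98) and a further Rad54l probe set (2.49).

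**Figure D5:**
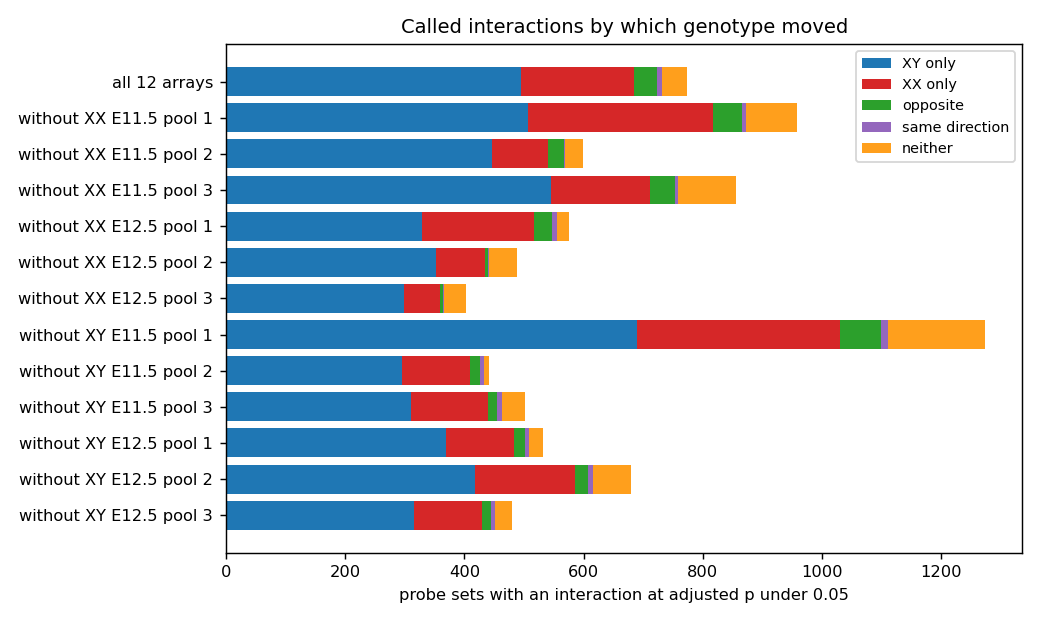
Number of probe sets with a called interaction, coloured by class, with all 12 arrays and without each array in turn. The total is 774 with all arrays and ranges from 403 without XX E12.5 pool 3 to 1273 without XY E11.5 pool 1.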

How the data were processed

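Gene expression was measured in 12 pools of sorted cells with Affymetrix arrays. The authors deposited a table of log2 values, 1 per probe set and array. How the signal was summarised and normalized is not stated by the labels or headers, and the log base was taken as 2 from the range of values (2.97 to 14.45). Of 45037 probe sets 798 were blank on all arrays and 1 on a single array, which left 44238. Symbols came from the platform annotation, brought up to date by Entrez number from RefSeq's GRCm38.p6 gene table (34138 matched). Of the tested probe sets 34340 had 1 symbol, 838 several and 9060 none, and only the first kind was named.

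Group means were fitted in R 4.3.3 by limma 3.58.1 (functions lmFit and eBayes, 8 residual degrees of freedom, two-sided). All adjusted p-values are limma's, with Benjamini-Hochberg adjustment over the 44238 probe sets, and ± gives the standard error unless SD is named. Folds are 2 raised to the log2 difference. The fit was tested on simulated data. The named genes are the 4 markers supplied for the comparison, the 8 largest interactions in each direction of each class, and up to 4 called members of each of 26 lists. Foxl2, Sox9, Fgf9, Amh, Wnt4, Wt1, Nr5a1 and Gata4 are described besides, called or not, as cell type markers listed with the design. The members and lists were chosen with earlier results of these data known. Array medians ran from 6.494 to 6.592, and 3 pools per group limit the precision. The alternatives were other scalings, variance models, filters and thresholds and the omission of arrays.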

Additional observations from a re-analysis of the deposited data

Results flagged for a closer look

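Each of the 78 probe sets here had an XY day change that differed from the XX day change by the interaction test itself, and each value is that interaction on the log2 scale (XY minus XX). Where the XY change was called and the XX change was not, positive values were Pak3 5.93, Erbb3 5.12, Ptgds 5.10, Epyc 4.83, Rtn4rl1 4.74, Rerg 4.72, Ms4a6d 4.68, Serpina5 4.66, Col9a3 4.56, Defb19 4.39, Dhh 4.24, Ptgds 3.55, Jag1 3.33, Vcan 3.26, Hes5 2.80, Aurka 2.75, Hey2 2.47, Fcgr3 2.39, Cst9 2.32, Ptch1 2.14 and Col9a2 1.88. Negative values in that class were Slitrk1 -6.34, Tph2 -6.00, Vav3 -5.32, Sphkap -5.25, Taf7l -5.18, Cd244a -5.18, Dclk1 -5.17, Fst -5.07, Lhx9 -3.86, Ndrg1 -3.63, Lrrn3 -3.39, Adm -3.16, Emx2 -3.00, Ptgis -2.91, Bmp2 -2.40, Fgfr2 -2.27, Dhrs3 -2.26, Cdkn1c -2.18 and Sry -1.57. Where the XX change was called and the XY change was not, positive values belonged to genes that fell in XX: Cbln4 4.60, Robo1 4.18, Ttk 3.77, Smoc2 3.75, Pak3 3.69, Ect2 2.94, Rad54l 2.94, Mospd2 2.84, Hpgd 2.76 and Nrg1 1.90. Negative values there belonged to genes that rose in XX: Vgll2 -4.36, Gabrb1 -4.25, Fst -4.00, Irx3 -3.86, Olfm1 -3.81, Irx5 -3.64, Gng13 -3.62, Il17d -3.46, Axin2 -1.59 and Phgdh -1.39. Genes that rose in XY and fell in XX were Pmepa1 3.25, Nceh1 3.11, Snap91 3.04, Dock10 2.96, Atp2a2 2.92, Vnn1 2.88, Septin11 2.46 and Ttc39c 2.42. Genes that fell in XY and rose in XX were Gdpd2 -4.21, Sema3a -4.02, Colec12 -3.71, Rspo1 -3.62, Mbnl3 -3.60, Wt1os -3.38, Dab1 -3.38, Prr36 -3.34 and Nr0b1 -2.29. Neither day change was called for Plxna4 -2.84. A gene listed more than once has several called probe sets. Gabrb1, not described above, was called at 1 of its 4 probe sets. It kept the call in 7 of the 12 omissions of a single array, with adjusted p up to 0.062 without XX E12.5 pool 3. No outlier test was run on single pools, since groups hold 3 pools.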

How the results depend on the processing

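The total of 774 called interactions lay within 1.5 times under 7 planned settings. Over 44238 probe sets array quality weights gave 1133, quantile scaling 795, median centring 758, a 2-fold minimum 745 and a mean-dependent variance prior 711. The other settings tested fewer. Among the 22119 probe sets brighter than the median 1005 were called, 630 of them shared with the 774. With 1 probe set per gene 850 of 18004 were called, 509 of them shared. The called share of those tested was therefore higher there than in the main fit, although the counts lay within 1.5 times. The total was 420 without pool 1 of XX and pool 2 of XY at E11.5, and XY only was then 247. This omission was chosen after seeing the data because these pools deviated together. Without single arrays the total ran from 403 to 1273, XY only from 296 to 690, XX only from 60 to 340 and opposite from 6 to 69. The total left that range of 1.5 times without XX E12.5 pool 2 (489) or pool 3 (403), without XY E11.5 pool 1 (1273), pool 2 (442) or pool 3 (501), and without XY E12.5 pool 3 (480). XX only was 328 with array weights and 124 when a day change counted at an unadjusted p. The opposite class was 68 among the brighter probe sets, 75 with array weights and 284 at an unadjusted p. The labels do not say whether equal pool numbers mark a pairing. Deviations of same-numbered pools correlated at -0.398 to 0.235 over 18 pairs, 4 of them over 0.1, and those of differently numbered pools at -0.36 to 0.396. With 3 pools per group these correlations cannot show whether pools shared a litter or batch. With the pool number as a replicate block 600 interactions were called, of which 26 were opposite, and 69 of the 78 named probe sets kept the call. None of the 78 named called interactions changed sign under the 2 scalings, array weights, the variance prior, the block or the omission of single arrays, and the 26 list medians moved by less than the spread between pools under either scaling, with sign changes only among those within 0.1 of 0. Signal in the background range limits the folds of 95 called probe sets to lower bounds.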
